A study of Mus musculus with 12 samples.

Results

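Egr4, Pramef12 (Pramel13 in current nomenclature), Asb9, Ccno, Gtsf1l, Tmprss5, Pik3c2g, Adh4, 4930503E14Rik and 1700080O16Rik are 10 genes that were chosen for a strong rise in both mutant ovaries, out of 29182 genes on the array. All 10 were found by their name on the array, with 14 probes among 41174, and all 10 were among the 18853 genes that passed the filter on dim probes, through 11 of these 14 probes. Because the genes were selected on the values of the mutant ovaries, those values are given below as a description, without a test. The rule set no threshold.

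The data were 12 single-colour Agilent arrays of total RNA from mouse gonads at E14.5, with 3 arrays in each of 4 groups and 1 pair of gonads per array. Tamoxifen had been given at E9.5 and E10.5 to activate Stella-MerCreMer, a Cre recombinase expressed under the control of the germ cell gene Stella. All 3 control testes were Smad4 flox/+ StellaMerCreMer Stra8+/-. Control ovary 1 had this same genotype, control ovary 2 was Smad4 flox/+ Stra8+/- and control ovary 3 was Smad4 flox/flox Stra8+/-, the last 2 without the Cre. Smad4 (Stella) ovaries were Smad4 flox/flox MerCreMer Stra8+/- and DKO ovaries were Smad4 flox/flox MerCreMer Stra8-/-, so that every control and every Smad4 (Stella) ovary lacked 1 copy of Stra8. Smad4 was removed from germ cells alone and with an efficiency that, per the study, varied, while Stra8 was absent from all cells of DKO embryos. Whole gonads were used, and fewer cells of a type and less RNA per cell cannot be told apart in them.

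SMAD4 is the partner that carries phosphorylated SMADs of the BMP and TGF-beta pathways to their target genes, and STRA8 is a nuclear factor that retinoic acid induces in germ cells of the fetal ovary before meiosis. In the fetal testis, retinoic acid is degraded and the germ cells enter mitotic arrest instead. Several of the genes described here have a known role in germ cells or belong to a family that does. EGR4 is a zinc finger transcription factor needed for the maturation of male germ cells, PRAMEF12 belongs to the leucine-rich repeat PRAME family, many of whose genes are expressed in germ cells, and GTSF1L belongs to a small family of zinc finger proteins whose founding member assists PIWI proteins. The others have been studied mainly elsewhere. ASB9 is a substrate adaptor of a cullin-RING ubiquitin ligase, CCNO (cyclin O) acts in centriole amplification of multiciliated cells, TMPRSS5 (spinesin) is a transmembrane serine protease, PIK3C2G is a class II phosphoinositide 3-kinase and ADH4 is an alcohol dehydrogenase that can also oxidise retinol.

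Promoters of 3 of the genes are shown because they differ in base composition and hold matches to short sites of SMAD proteins or retinoic acid receptors. Binding at these matches was not tested. Each is the stretch from 250 bases before to 50 bases after a RefSeq transcription start in GRCm38.p6, printed 5′ to 3′ on the strand of the gene. Capitals mark GGCGCC, a GC-rich SMAD site, in Egr4 (chr6:85513540-85513839, minus strand), CAGAC or its complement GTCTG, the core SMAD site, in Pramef12 (chr4:144408415-144408714, minus strand), and AGGTCA, the core site of nuclear receptors such as the retinoic acid receptors, in Adh4 (chr3:138415247-138415546, plus strand).
Egr4: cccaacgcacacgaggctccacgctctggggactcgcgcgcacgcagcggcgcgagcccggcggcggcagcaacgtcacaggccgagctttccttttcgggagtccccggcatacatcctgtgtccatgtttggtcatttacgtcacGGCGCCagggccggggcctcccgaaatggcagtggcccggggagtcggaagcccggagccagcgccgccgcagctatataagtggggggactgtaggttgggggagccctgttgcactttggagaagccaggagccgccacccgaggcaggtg
Pramef12: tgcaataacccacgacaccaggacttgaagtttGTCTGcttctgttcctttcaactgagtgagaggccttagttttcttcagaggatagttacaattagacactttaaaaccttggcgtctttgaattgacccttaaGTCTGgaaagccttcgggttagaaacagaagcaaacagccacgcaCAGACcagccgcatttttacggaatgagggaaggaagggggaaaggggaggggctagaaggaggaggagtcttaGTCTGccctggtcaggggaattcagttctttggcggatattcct
Adh4: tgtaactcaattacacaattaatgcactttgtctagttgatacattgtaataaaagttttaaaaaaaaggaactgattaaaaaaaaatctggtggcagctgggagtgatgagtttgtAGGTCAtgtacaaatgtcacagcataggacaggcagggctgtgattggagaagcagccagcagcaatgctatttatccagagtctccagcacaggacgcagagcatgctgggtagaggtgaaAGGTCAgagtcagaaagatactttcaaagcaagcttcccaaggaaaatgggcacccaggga

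All 10 genes had a promoter in the RefSeq table, with 2 starts listed for Tmprss5 and for Pik3c2g, giving 12 promoters. Egr4 and Ccno had CpG-rich promoters, with a ratio of observed to expected CpG of 0.88 and 0.86, above the upper quartile of 0.75 over 32851 promoters. In contrast, Asb9, 4930503E14Rik, Tmprss5, Adh4 and Gtsf1l were between 0.04 and 0.13, below the lower quartile of 0.18. The remaining 3 genes lay between the quartiles, and the median of all promoters was 0.38. Thus the 10 genes did not share a class of promoter by this measure. On both strands, CAGAC was found in the promoters of 3 genes (Asb9, Pramef12 with 4 matches, and Ccno) and in 49.6% of all promoters. GGCGCC was found in 3 genes (Egr4, Ccno and Gtsf1l) and in 11.9% of all promoters, and AGGTCA in Adh4, with 2 matches, and in 16.3%. The STRA8 site CNCCTCAG, present in 7.9% of all promoters, was not found in these windows of any of the 10 genes, nor were GTCTAGAC (a SMAD palindrome), GCGTGGGCG (EGR proteins), CACGTG (an E-box) and TTTCGCGC (E2F), which were present in 0.2%, 0.6%, 7.2% and 0.3%. Asb9 and 1700080O16Rik are on the X chromosome, whereas the other 8 genes are on 7 different autosomes.

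Levels below are log2 intensities from which the 75th percentile of the array was subtracted, so that a level of 0 is that percentile. The signal at the 75th percentile was between 476 and 997 on the 12 arrays, 59.3% to 71.0% of spots were well above background, and 0 spots were saturated. Hybridisation slides held more than 1 group. Slide 1 carried the 3 control testes and control ovary 1, slide 2 control ovaries 2 and 3 with DKO ovaries 1 and 2, and slide 3 the 3 Smad4 (Stella) ovaries with DKO ovary 3. All 5 Sertoli markers (Sox9, Amh, Dhh, Ptgds, Aard) were called higher and all 5 pregranulosa markers lower in control testes than in control ovaries, and 0 of these 10 were called by limma in either mutant against control ovaries (2 in Smad4 (Stella) and 1 in DKO ovaries had an unadjusted p under 0.05). Control ovary 3 stood apart in skeletal muscle genes, with Acta1 at 2.02, against -3.88 and -2.16 in control ovaries 1 and 2, and in the kidney tubule gene Cdh16, at 0.62 against -4.15 and -2.84. Cdh16 was also high in DKO ovary 3, at 1.20. Of other cell type markers, 1 of 4 mesonephric genes was called higher in DKO than in control ovaries (Lhx1, by 1.54, adjusted p = 0.00273), as was 1 of 4 macrophage genes (Cd68, by 0.72, adjusted p = 0.0211), and 1 of 4 erythroid genes was lower (Hbb-y, by -1.15, adjusted p = 0.00216, with 1 control ovary array dropped). The summed signal of the mesonephric markers, in multiples of the 75th percentile, was 0.171 to 1.67 in control, 0.229 to 0.266 in Smad4 (Stella) and 0.415 to 2.53 in DKO ovaries, and that of the macrophage markers 1.67 to 2.42, 1.60 to 1.70 and 1.81 to 5.99. The part of these cells in the values below was not tested. Without control ovary 3 the median rise of the 10 genes was 2.78 in Smad4 (Stella) and 5.05 in DKO ovaries, and without DKO ovary 3 it was 5.16 in DKO ovaries, against 2.67 and 4.97 with all arrays.

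**Figure D1:**
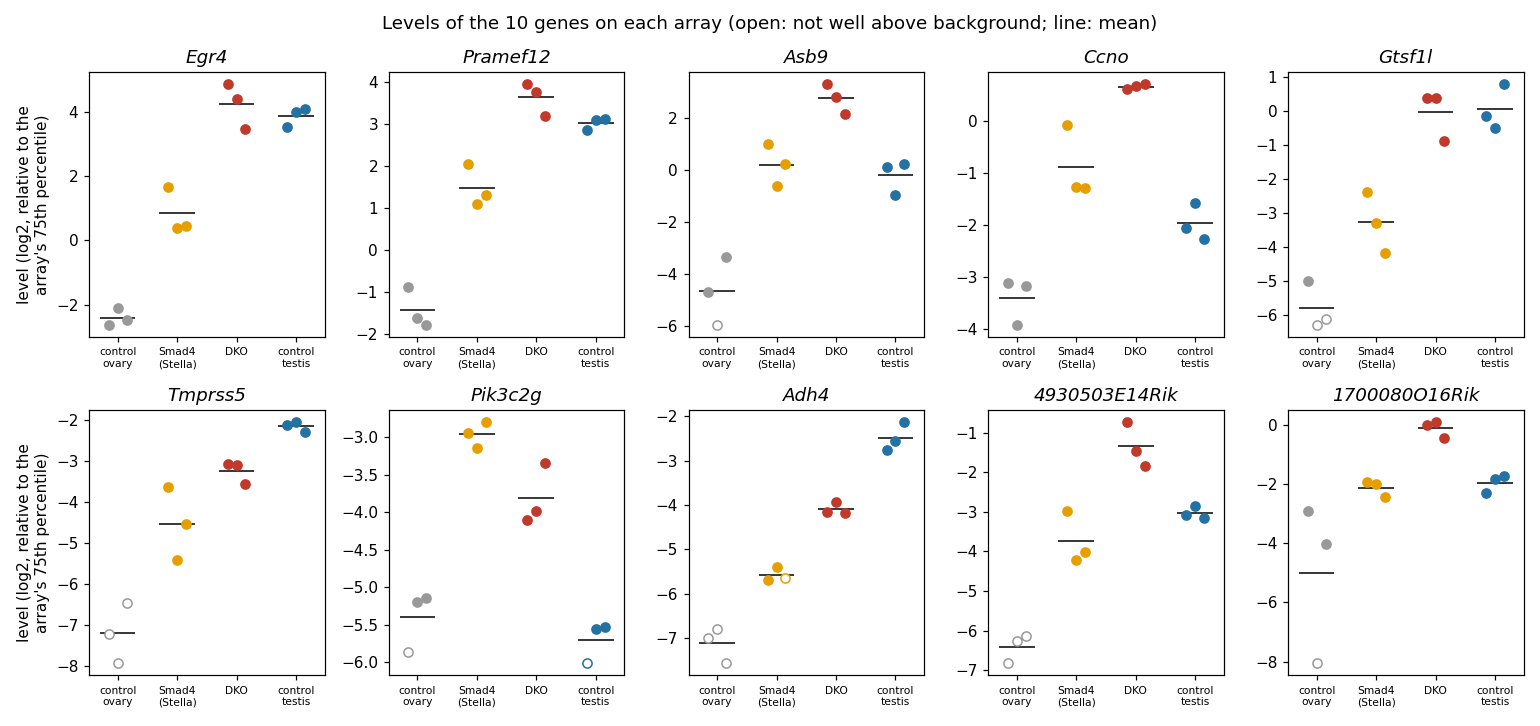
Level of each of the 10 genes on each of the 12 arrays, as log2 intensity relative to the 75th percentile of the array (vertical axes, which differ between panels), by group. Points are arrays, open where the gene was not well above background, and lines are group means; for 9 genes the DKO arrays lie above the Smad4 (Stella) arrays, and for Pik3c2g they lie below.

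In both mutants all 10 genes were higher than in control ovaries, as the selection requires. The median log2 difference was 2.67 in Smad4 (Stella) ovaries and 4.97 in DKO ovaries, against -0.02 and 0.00 over all genes tested. With the 3 genes that were dim on every control ovary array set to their bound, these medians were 2.52 and 4.56. In the Smad4 (Stella) ovaries all 3 arrays lay above all 3 control ovary arrays for 10 of 10 genes, compared with 12.5% of all genes, and in DKO ovaries for 10 of 10, compared with 16.2%. The step from Smad4 (Stella) to DKO ovaries was upward without overlap for 9 of 10 genes, compared with 16.8% of all genes, with a median log2 difference of 2.07. A rise without overlap at both steps was seen for 2.39% of all genes. Nothing is read from these counts, since the selection used them. Depending on the background correction, the size of the rise differed: with the normexp method the medians were 0.83 and 2.83, and with the slide as a block they were 3.53 and 5.33.

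Among the genes tied to the germline by their role or family, Egr4 was well above background on all 12 arrays. Control ovaries 1 to 3 had levels of -2.63, -2.11 and -2.49, and Smad4 (Stella) ovaries had 1.67, 0.39 and 0.44. DKO ovaries had 4.87, 4.40 and 3.46, and the testes 3.53, 3.99 and 4.10. The 3 ovarian groups did not overlap, while the DKO ovaries spanned the range of the testes. The differences from control ovaries were 3.25 in Smad4 (Stella) and 6.65 in DKO ovaries (SE 0.40 for both), that is 9.49-fold and 101-fold.

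Pramef12 was likewise measured on all 12 arrays. Levels of -0.89, -1.63 and -1.78 were found for control ovaries and of 2.04, 1.11 and 1.31 for Smad4 (Stella) ovaries. DKO ovaries had 3.95, 3.75 and 3.19, and the testes 2.85, 3.08 and 3.13. No 2 groups overlapped, and DKO ovaries were the highest, although DKO ovary 3 exceeded the highest testis only narrowly. Of the 10 genes, Pramef12 followed the mean of the other 9 most closely over the 12 arrays, with a Pearson correlation of 0.99, given as a description because the genes were chosen for a shared pattern and share the arrays.

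Gtsf1l was well above background in only 1 of the control ovaries, with levels of -4.99, -6.27 and -6.09. Smad4 (Stella) ovaries had -2.37, -3.27 and -4.16, DKO ovaries 0.39, 0.40 and -0.89, and the testes -0.14, -0.50 and 0.81. The rise in Smad4 (Stella) ovaries was thus partial, 2.52 (SE 0.55), with the lowest array within 1 log2 unit of control ovary 1, whereas DKO ovaries and testes overlapped.

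Asb9, the ubiquitin ligase adaptor, had the largest fitted rise over control ovaries of all 18853 genes in both mutants under the main background correction. With normexp correction its rise in DKO ovaries was 5.27, below that of Egr4 at 5.75. Control ovaries 1 to 3 had levels of -4.66, -5.94 and -3.34, the second of them not well above background, and Smad4 (Stella) ovaries had 0.998, -0.60 and 0.22. DKO ovaries had 3.31, 2.80 and 2.16, and the testes 0.12, -0.97 and 0.25. Unlike Egr4 and Gtsf1l, Asb9 in the Smad4 (Stella) ovaries overlapped with the testes, and all 3 DKO ovaries lay above them, by a mean of 2.96. The differences from control ovaries were 4.85 and 7.41 (SE 0.64), and the control ovaries themselves spread widely, with an SD of 1.30.

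Ccno, encoding cyclin O, was also higher in the mutants than in either control gonad. Control ovaries had levels of -3.12, -3.92 and -3.18, and the testes -2.05, -1.58 and -2.27. Smad4 (Stella) ovaries had -0.08, -1.27 and -1.29, and DKO ovaries 0.60, 0.66 and 0.71. None of the 4 groups overlapped, and the 3 DKO ovaries were within 0.11 of each other. Foxj1, a master factor of motile cilia and the only marker of multiciliated cells with a tested probe (1 of 4 listed), differed by 0.11 in Smad4 (Stella) and 0.02 in DKO ovaries from control ovaries (adjusted p = 0.71 and 0.96).

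For the enzymes Tmprss5 and Adh4, none of the control ovaries was well above background, and only bounds can be given for their rise. Their measured levels there were -7.23, -7.93 and -6.47 for Tmprss5 and -7.01, -6.80 and -7.56 for Adh4. For Tmprss5, Smad4 (Stella) ovaries had -3.65, -5.43 and -4.54, DKO ovaries -3.07, -3.11 and -3.58, and the testes -2.13, -2.06 and -2.30. Its order was thus control ovaries, Smad4 (Stella), DKO and testes without overlap. It was at least 2.06-fold higher in Smad4 (Stella) and at least 5.02-fold higher in DKO ovaries than in control ovaries. A bound compares the brighter mean with the dimmest signal that was still well above background, under the main background correction only. On the log2 scale these bounds are 1.04 and 2.33, but with normexp correction the differences were 0.32 and 1.36. Adh4, the retinol-oxidising dehydrogenase, had levels of -5.70, -5.40 and -5.66 in Smad4 (Stella) ovaries, the last not well above background. DKO ovaries had -4.15, -3.93 and -4.17, and the testes -2.76, -2.57 and -2.13. The order was the same as for Tmprss5, and testes were above DKO ovaries by 1.60, the widest such gap among the 10 genes. Adh4 was at least 2.83-fold higher in DKO than in control ovaries, but in Smad4 (Stella) ovaries the bound lay at equality, so that no fold can be stated there.

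Of the uncharacterised genes, 4930503E14Rik was dim on all control ovary arrays, too. On the probe that passed the filter, control ovaries had -6.82, -6.26 and -6.15, and Smad4 (Stella) ovaries -2.97, -4.22 and -4.01. DKO ovaries had -0.73, -1.45 and -1.83, and the testes -3.07, -2.84 and -3.15. It was at least 3.60-fold higher in Smad4 (Stella) and at least 19.0-fold higher in DKO ovaries than in control ovaries. These bounds are 1.85 and 4.25 on the log2 scale, but with normexp correction the differences were 0.52 and 2.14. The DKO ovaries were also above the testes. The X-linked gene 1700080O16Rik had levels of -2.91, -8.05 and -4.04 in control ovaries 1 to 3. Smad4 (Stella) ovaries had -1.95, -1.99 and -2.44, DKO ovaries -0.01, 0.09 and -0.46, and the testes -2.31, -1.85 and -1.74. Its control ovaries were the most scattered of the 10 genes, with an SD of 2.70 and with control ovary 2 not well above background, and control ovary 1 lay close below the lowest Smad4 (Stella) ovary.

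Pik3c2g did not rise stepwise. Its level, the mean of 2 probes, was -5.87, -5.19 and -5.14 in control ovaries 1 to 3, and the testes had -6.01, -5.55 and -5.53. Smad4 (Stella) ovaries had -2.94, -3.14 and -2.80, and DKO ovaries -4.11, -3.98 and -3.35. The Smad4 (Stella) ovaries were the highest group, DKO ovaries were lower by 0.85 without overlap, and control testes overlapped with control ovaries. The highest DKO ovary was number 3, which shared a slide with the Smad4 (Stella) ovaries, and within that slide it lay 0.39 below their mean. With the slide as a block, the differences from control ovaries were 1.51 in Smad4 (Stella) and 1.12 in DKO ovaries, in place of 2.44 and 1.59. After normexp correction, DKO ovaries lay above Smad4 (Stella) ovaries by 0.30. The median of all genes for this difference was then 0.28. Its profile over the 12 arrays correlated with the mean of the other 9 genes at 0.25, while the other genes had correlations between 0.77 and 0.99.

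The array carried 4 probes named Pik3c2g, of which 2 passed the filter. The first 30 bases of these 60-base probes are shown, with their positions on mm9, all on the plus strand of chromosome 6, since the level of the gene rests on the 2 that passed. Capitals are not used here.
A_52_P564413: tctcccccatcatcattcatcctactcaat
A_52_P402847: aaacattattttattttctgcttaaataaa
A_52_P78514: cccaaggttgcttaaggattccagagacta
A_51_P191077: ttacagagtgttaccagcatagtagacaaa

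A_52_P564413 (chr6:139570930-139570989) and A_52_P402847 (chr6:139794897-139794956) did not pass the filter. The former was well above background on 3 of 12 arrays and the latter on 0, so that neither gives a difference between groups. The probes farther downstream, A_52_P78514 (chr6:139810100-139810159) and A_51_P191077 (chr6:139917709-139917768), were higher than in control ovaries by 2.58 and 2.31 in Smad4 (Stella) ovaries and by 1.56 and 1.62 in DKO ovaries. On both of them the Smad4 (Stella) mean was above the DKO mean. The rise of Pik3c2g was thus measured only by the 2 probes nearer to the 3′ end, and whether it extends to the 5′ part of the gene was not measured.

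The gene 4930503E14Rik had a further probe, A_52_P142091 (chr14:44741624-44746886 on mm9, minus strand), that did not pass the filter. It was well above background on 2 arrays, both of DKO ovaries, and gives no difference between groups. With 0 Smad4 (Stella) ovaries and 0 testes well above background, it did not show the rises that the other probe had there. With no filter, which averages both probes, the gene rose by 1.11 in Smad4 (Stella) and 3.18 in DKO ovaries, in place of 2.68 and 5.07. In the main values the level of the gene is that of the passing probe, A_51_P285856 (chr14:44741097-44741156). The remaining 8 genes were each represented by 1 probe, so that no such comparison was possible.

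**Figure D2:**
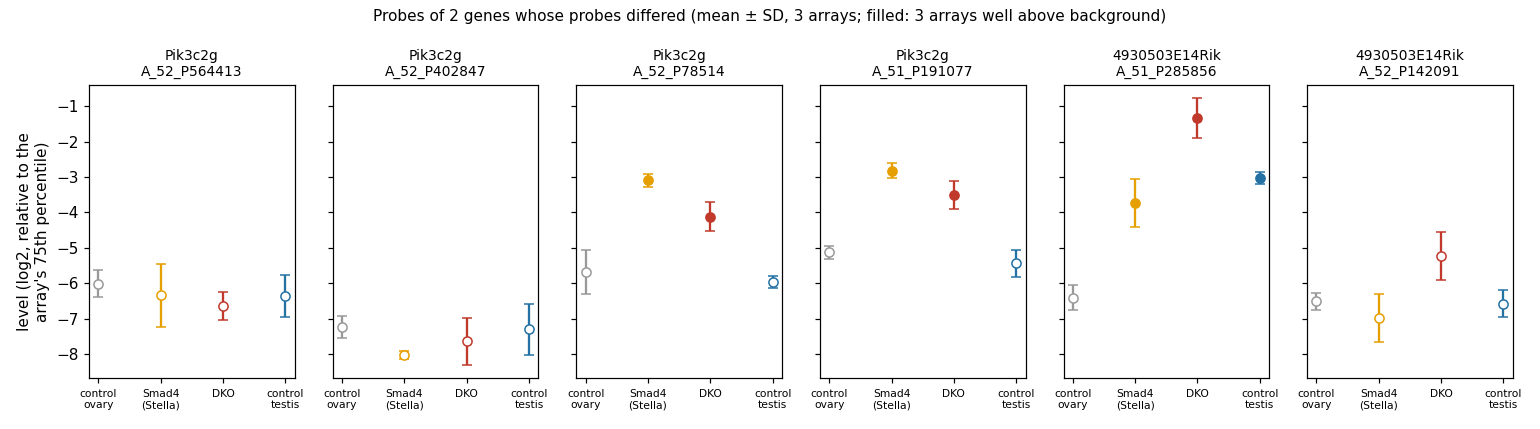
Level of each probe of Pik3c2g (ordered from 5′ to 3′) and of 4930503E14Rik, as mean ± SD of 3 arrays per group on the log2 scale relative to the 75th percentile, filled where all 3 arrays were well above background. The 2 downstream Pik3c2g probes were higher in both mutants and the 2 upstream probes stayed near background in all groups.

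The slides allow part of the comparison to be made within a batch. On slide 2, DKO ovaries 1 and 2 were above control ovaries 2 and 3 for 10 of 10 genes, compared with 26.4% of all genes, by 1.12 (Pik3c2g) to 7.70 (Asb9). On slide 3, DKO ovary 3 lay above all 3 Smad4 (Stella) ovaries for 9 of 10 genes, compared with 37.3% of all genes, although for Tmprss5 by only 0.07. Nothing is read from either count, since the selection used these arrays. Smad4 (Stella) and control ovaries shared no slide, and their difference has no value within a batch. Across genes, Smad4 (Stella) ovary 1 was the highest of its group for 8 of 10 genes, and DKO ovary 3 was the lowest of its group for 8 of 10. Averaged over the 10 genes, Smad4 (Stella) ovaries had mean levels of -1.50, -2.38 and -2.29, and DKO ovaries 0.11, -0.04 and -0.48. Both rankings are counts over genes measured on the same arrays. The share of all genes with either ranking was not counted, so that a trait of these genes cannot be told from one of the array. Nothing is read from these rankings, and the efficiency of Cre in each gonad was not measured on the arrays.

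The control testes were not part of the rise that selected the genes and were tested, although the control ovaries they were compared with are those of the selection. Low control ovary values favour selection and also enlarge a difference from testes. The differences, calls and p-values below therefore lean toward higher values in testes, by an amount that was not measured. Of the 10 genes, 9 were called higher in control testes than in control ovaries by limma (adjusted p under 0.05 and at least 1.5-fold), where 17.2% of all genes were called higher. The median log2 difference of the 10 genes was 4.45, or 3.26 with the genes dim in control ovaries at their bound, and that of all genes was 0.02. Egr4 was higher in testes by 6.28 (SE 0.40, adjusted p = 9.07e-07), Gtsf1l by 5.84 (SE 0.55, adjusted p = 1.28e-05), Pramef12 by 4.45 (SE 0.30, adjusted p = 1.29e-06) and Asb9 by 4.45 (SE 0.64, adjusted p = 0.000236). On these arrays, these 4 genes thus differed strongly between the control gonads of the 2 sexes, with that limit. Tmprss5, Adh4 and 4930503E14Rik were at least 10.7-fold, 8.56-fold and 5.91-fold higher in testes (adjusted p = 7.05e-06, 1.14e-07 and 2.54e-05), with control ovaries at background. These bounds, too, hold for the main background correction only.

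Ccno and 1700080O16Rik had smaller or less certain differences. Ccno was higher in testes by 1.44 (SE 0.33, adjusted p = 0.00455), a difference of 1.15 with the slide as a block (adjusted p = 0.098). 1700080O16Rik was higher by 3.03 (SE 0.99, adjusted p = 0.0272), and without control ovary 2 by 1.51 (adjusted p = 0.00479). The call was lost without testis 2 or 3 (adjusted p = 0.0687 and 0.0738) and in a model of only the groups compared (adjusted p = 0.0952), and on slide 1 the testes exceeded control ovary 1 by 0.95 (adjusted p = 0.547 with the slide as a block). Pik3c2g differed by -0.30 (SE 0.25, adjusted p = 0.353) and was not called. With normexp correction, Ccno, Adh4 and 4930503E14Rik were no longer called (adjusted p = 0.078, 0.094 and 0.063).

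Sertoli and Leydig cell genes also distinguish the testes. The summed signal of the 5 Sertoli markers, in multiples of the 75th percentile, was 51.4 to 57.7 in testes, 1.66 to 1.97 in control ovaries, 1.79 to 2.23 in Smad4 (Stella) ovaries and 1.51 to 2.01 in DKO ovaries. That of the 4 fetal Leydig markers measured (of 5) was 63.3 to 71.7 in testes and between 1.61 and 3.03 in all ovaries. The part of these cells in the testis levels of the 10 genes was not tested, whereas in the mutant ovaries both sums were near those of control ovaries. The summed germ cell markers (Ddx4, Dazl, Stk31, Rnf17 and Tdrd1, 5 of 5 measured) were 46.5 to 59.6 in control ovaries, 39.1 to 45.9 in Smad4 (Stella) ovaries, 48.8 to 60.5 in DKO ovaries and 28.0 to 34.2 in testes. Single markers differed in direction. In DKO against control ovaries, Stk31 (-0.67) and Rnf17 (-1.05) were called lower and Tdrd1 (1.38) higher, and in testes Dazl, Stk31 and Rnf17 were called lower and Tdrd1 higher, by 1.57. In Smad4 (Stella) ovaries 0 of 5 were called by limma (2 with an unadjusted p under 0.05). The part of germ cell number in the values of the 10 genes was not tested.

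**Figure D3:**
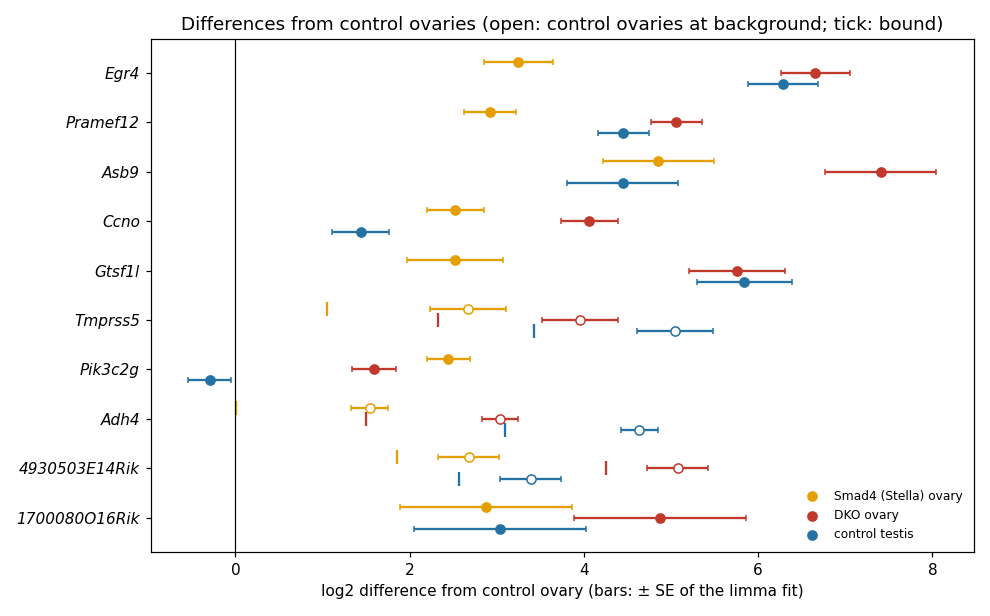
Log2 difference of each gene from control ovaries in Smad4 (Stella) ovaries, DKO ovaries and control testes, with bars of ± SE from limma over 12 arrays. Open points are genes dim on all control ovary arrays, with a tick at their bound; 7 genes lie farther right in DKO ovaries than in testes, and Adh4, Tmprss5 and Gtsf1l farther left.

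Set side by side with the testes, the mutants fell into several orders. All 3 DKO ovaries were above all 3 testes for 6 genes (Asb9, Ccno, Pik3c2g, Pramef12, 4930503E14Rik and 1700080O16Rik), compared with 24.7% of all genes, overlapped with them for Egr4 and Gtsf1l, and were below them for Adh4 and Tmprss5, compared with 25.8%. In DKO ovaries the excess over testes was 2.96 for Asb9, 2.62 for Ccno, 1.89 for Pik3c2g, 1.84 for 1700080O16Rik, 1.69 for 4930503E14Rik and 0.61 for Pramef12. The Smad4 (Stella) ovaries were above the testes for Ccno and Pik3c2g (29.2% of all genes), below them (34.6%) for Egr4, Pramef12, Gtsf1l, Tmprss5 and Adh4, and overlapped with them for the other 3 genes. These differences involve the arrays of the selection and were not tested.

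For the genes with a known family or pathway, 111 relatives were listed by name in 8 groups, of which 97 were on the array and 70 were tested. The uncharacterised genes 4930503E14Rik and 1700080O16Rik had no such list. In Smad4 (Stella) ovaries 0 of the 70 relatives were called by limma, where 0.271% of all genes were, and 9 had an unadjusted p under 0.05. In DKO ovaries 10 were higher and 7 lower, where 6.69% and 7.98% of all genes were, and in control testes 21 were higher and 14 lower, where 17.2% and 16.8% were. Against Smad4 (Stella) ovaries, 8 were higher and 4 lower in DKO ovaries (4.38% and 4.06% of all genes). The median difference of the relatives was -0.03 in Smad4 (Stella) and 0.14 in DKO ovaries.

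Among the relatives of Gtsf1l, all 3 tested genes of the GTSF and PIWI group were called higher in DKO ovaries. Piwil1 and Piwil2 encode PIWI proteins, which bind piRNAs and act in transposon silencing in the male germline. Piwil2 was higher by 1.39 (SE 0.19, adjusted p = 0.000603), Piwil1, dim in control ovaries, was at least 1.96-fold higher (adjusted p = 0.000361), and Gtsf1 was higher by 0.86 (SE 0.28, adjusted p = 0.0474), a call that was lost on leaving out any array other than control ovary 1 or DKO ovary 3. All 3 were also called higher in testes, by 2.53 for Gtsf1 and 0.94 for Piwil2, and at least 3.45-fold for Piwil1. With the slide as a block Piwil2 was not called in testes (0.70, adjusted p = 0.0644), and with normexp Piwil1 was called in neither testes nor DKO ovaries (adjusted p = 0.417 and 0.453). In Smad4 (Stella) ovaries they differed by 0.06 to 0.48 and were not called.

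Of the PRAME family, 16 relatives were listed, 10 were on the array and 2 were tested, Prame and Pramef8. Prame, the founding gene, was at least 6.62-fold higher in testes (adjusted p = 1.44e-05). In DKO ovaries, 2 of 3 arrays measured it, and it was at least 1.53-fold higher than in control ovaries, where it was dim (adjusted p = 0.00169). Among EGR factors and their NAB corepressors, 5 of 5 were tested. Egr2 was called higher in DKO ovaries (SE 0.27, adjusted p = 0.0231), with a mean difference of 1.002, and Egr1, an immediate early gene, in testes (1.38, SE 0.13, adjusted p = 1.03e-05). The corepressors Nab2 and Nab1 were higher in DKO than in Smad4 (Stella) ovaries, by 1.12 and 0.64 (adjusted p = 0.0204 and 0.0248). Both calls were lost with the slide as a block (0.71 and 0.30, adjusted p = 0.0576 and 0.387) and on leaving out DKO ovary 1 or 2 or Smad4 (Stella) ovary 2 or 3. That of Egr2 was lost without control ovary 2 or 3 or DKO ovary 2.

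Of the cyclin and multiciliation genes, 19 of 22 listed were tested, with 3 higher and 2 lower in DKO ovaries. Ccna1, a cyclin of male germ cells, was higher by 1.59 (SE 0.25, adjusted p = 0.00139), and the mitotic cyclins Ccnb1 and Ccnf by 1.15 and 1.16. Ccne2, a cyclin of the G1 to S transition, was lower by -2.45 (SE 0.15, adjusted p = 5.93e-06), and Ccnb3, a cyclin of female meiosis, by -2.36 (SE 0.37, adjusted p = 0.00129). The other 14 did not pass the test. Among 16 tested ASB proteins and ligase components, only Asb1 was called in DKO ovaries, and it was lower, by -1.75 (SE 0.11, adjusted p = 7.93e-06), opposite to Asb9.

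Of 11 tested phosphoinositide 3-kinase genes, 2 were called higher and 2 lower in DKO ovaries (6.69% and 7.98% of all genes), and 7 did not pass the test. The catalytic subunit gene Pik3cd was higher by 1.21 and Pik3c3, the class III kinase, by 0.88 (adjusted p = 0.0145 and 0.000822). The regulatory subunit gene Pik3r3 was lower by -1.41 and Pik3c2a, another class II kinase, by -1.01 (adjusted p = 0.000123 and 0.00487). Of 5 tested transmembrane serine proteases, Hpn was the only one called in DKO ovaries (-0.70, adjusted p = 0.0365), and Tmprss6 and Tmprss13 were higher in testes, by 2.32 and 1.63, without being called in DKO ovaries. Of 9 alcohol and retinal dehydrogenases, Rdh10, which makes retinal from retinol, was the only one called in DKO ovaries (-0.59, adjusted p = 0.00177). Adh1 was higher in testes by 6.15 (SE 0.37, adjusted p = 6.43e-07) but differed by -0.23 in DKO ovaries (adjusted p = 0.711). Whether it differed from Adh4 in this was not tested. The calls of Hpn and Rdh10 were lost without control ovary 2 or DKO ovary 2, that of Rdh10 also without control ovary 1, and that of Hpn also without control ovary 3, testis 3, DKO ovary 1 or Smad4 (Stella) ovary 2. With normexp correction, 21 of the 32 differences of relatives and neighbours that are named with a call were no longer called.

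**Figure D4:**
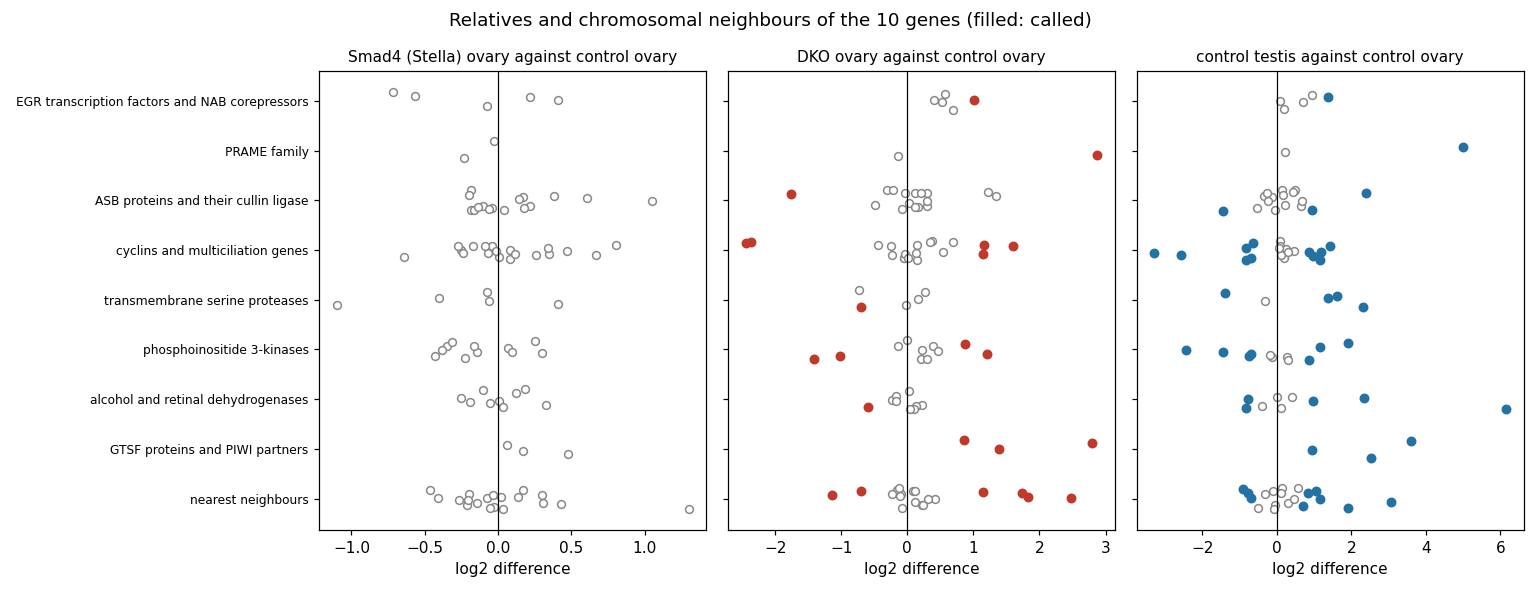
Log2 difference from control ovaries of the 70 relatives, in 8 groups, and of the 19 nearest neighbours, in Smad4 (Stella) ovaries, DKO ovaries and control testes; each point is a gene, filled where limma called it, and the horizontal axes differ. No filled point appears for Smad4 (Stella) ovaries, and in DKO ovaries all 3 GTSF and PIWI genes are filled on the right.

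Whether genes beside the 10 on the chromosome moved as well was examined with the 2 nearest protein-coding genes on each side. Of 40 such neighbours, 26 were on the array and 19 were tested. In Smad4 (Stella) ovaries 0 of 19 were called by limma (3 with an unadjusted p under 0.05), in DKO ovaries 4 were higher and 2 lower, and in testes 6 were higher and 3 lower, against the shares of all genes given above. Usp26, a ubiquitin protease gene of the male germline next to 1700080O16Rik, was higher by 2.48 in DKO ovaries (SE 0.24, adjusted p = 8.76e-05) and by 1.04 in testes (adjusted p = 0.00525). It differed by 1.30 in Smad4 (Stella) ovaries and was not called there (adjusted p = 0.0674). By group means, control ovaries were lowest and DKO ovaries highest for both Usp26 and 1700080O16Rik. The mean of Smad4 (Stella) ovaries lay above that of testes for Usp26 and below it for 1700080O16Rik. Igbp1b, beside Pik3c2g, was at least 1.71-fold higher in DKO ovaries, with 2 of 3 arrays above background (adjusted p = 0.00605). Beside Egr4, Fbxo41 was higher by 1.73 in DKO ovaries (SE 0.35, adjusted p = 0.00499), whereas Alms1 was lower by -1.15 (SE 0.18, adjusted p = 0.0011).

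The 10 other genes whose levels over the 12 arrays were most like the mean of the selected genes had Pearson correlations between 0.96 and 0.97. They were Fthl17e, Nlrp4c, Vwa8, Slc44a1, Slc12a2, Tmem268, Slc16a11, Ada, Mpg and Ak8. This is a description, since they were picked for that likeness over arrays that share samples and slides. Fthl17e, a ferritin heavy chain-like gene, had group means of -3.89, -2.18, 0.01 and -0.84 in control ovaries, Smad4 (Stella) ovaries, DKO ovaries and control testes, and Nlrp4c, of the NLR family, -1.61, 0.18, 2.69 and 1.21. By group means, both thus had the order of 4930503E14Rik and Pramef12, with DKO ovaries highest. For Fthl17e, however, the DKO ovaries overlapped with the testes. The size of the rise differed widely, from 0.59 in DKO ovaries for Vwa8 to 4.30 for Nlrp4c. None of the 10 was on the lists of relatives.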

How the data were processed

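RNA of E14.5 gonads was hybridised to 12 single-colour arrays, and groups were taken from the sample labels. Scanner files (Feature Extraction 11.0.1.1, probes annotated on mm9) that the authors deposited hold intensities with each array's background already subtracted. They also deposited a table of the same intensities rounded to 3 significant digits, unscaled. Here, log2 of the processed intensity minus the 75th percentile of spots other than controls was taken, outlier spots were left out, and spots of a probe were averaged. Of 41174 probes, the 27323 detected above background throughout some group were kept and averaged per gene. Groups were compared in 1 limma 3.58.1 model (R 4.3.3) without a block, with Benjamini-Hochberg adjustment over 18853 genes. A call needed an adjusted p under 0.05 and a 1.5-fold change. The study's methods name Student's test, which was kept as an alternative.

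A gene dim on all arrays of a group has only a bound, its brighter mean against the dimmest signal well above background. The bound holds for the main background correction only. The number of arrays limits the precision. The 10 genes and all lists were chosen with earlier results of these data known. Named genes were the 10 genes, up to 3 of the largest called changes per list of relatives or neighbours, and the 10 most alike. Neighbours, current symbols and promoters came from RefSeq (GRCm38.p6), of which positions were never joined with mm9. In simulated data for testes against control ovaries, with 200 of 18821 genes changed, 92% of changes of 2 and 58% of changes of 1 on the log2 scale were called, with 8 false calls. Alternatives were quantile normalization, normexp with an offset of 50, the deposited table, the brightest probe, no filter, slide or replicate number as a block, only the groups compared, leaving out each array, a 2-fold threshold and the methods' t-test.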

Additional observations from a re-analysis of the deposited data

How the results depend on the processing

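Of the 10 genes, 9 were called higher in testes, 6 with normexp, 7 with the slide as a block, 8 with a model of only the groups compared or without testis 2 or 3, and 9 under the other settings but the methods' t-test, which gave 8 both with and without adjustment. With normexp, the median rises of the 10 genes were 0.83 in Smad4 (Stella) and 2.83 in DKO ovaries and the step between them 1.65, while the median of all genes was -0.07, 0.26 and 0.28. With the slide as a block they were 3.53, 5.33 and 1.68, and without a filter the rise in DKO ovaries was 4.47. Pik3c2g, not called in testes, turned to 0.24 with normexp and to 0.17 with the slide as a block. With the unscaled table, which moved the median of all genes to 0.40 in Smad4 (Stella) ovaries, 7 of the 10 genes had all DKO above all Smad4 (Stella) arrays, in place of 9.

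With normexp, 18 relatives and 2 neighbours were called in testes, 5 and 1 in DKO ovaries, and 2 and 0 between the mutants. The unscaled table gave 4 neighbours in testes, 10 relatives in DKO ovaries, and 6 relatives and 0 neighbours between the mutants. The slide block gave 6 and 0 between the mutants, the absent filter 3 neighbours, and a model of only the groups compared 0 neighbours. Calls over all 18853 genes changed with the setting as well. In testes they numbered 6401 in the main model, 2666 with normexp, 3728 with the unscaled table and 6343 with the slide block. In DKO ovaries they numbered 2765, 913, 1001 and 2962, in the same order. The cause was not tested.

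Leaving out each array in turn gave rises in DKO ovaries of 4.38 (without control ovary 2) to 5.16. Between the mutants it gave 6 (without Smad4 (Stella) ovary 2) to 15 relatives and 1 (without Smad4 (Stella) ovary 2 or 3) to 5 neighbours, with 2 and 3 neighbours without DKO ovaries 1 and 2. In Smad4 (Stella) ovaries it gave 0 to 1 of each. Of 32 differences of named relatives and neighbours, 21 were no longer called with normexp, 11 with the unscaled table and up to 6 on leaving out 1 array (DKO ovary 2), and 0 changed sign. Replicate numbers did not pair the samples, since deviations of same-numbered samples correlated between -0.18 and 0.15. With the replicate number as a block, 9 of the 10 genes, 37 relatives and 9 neighbours were called in testes and 17 and 6 in DKO ovaries, and 0 named calls were lost.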
